A study of Mus musculus with 12 samples.

Results

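Notch pathway genes were examined in RNA-Seq read counts of differentiating primary keratinocyte cultures from neonatal BALB/c mice. The 9 genes were the receptors *Notch1*, *Notch2* and *Notch3*, the ligands *Jag1*, *Jag2* and *Dll1*, the target genes *Hes1* and *Hey1*, and *Rbpj*, and they were taken by name from the 21947 counted loci. A locus joined by a comma to another name was left out, and those left out for *Notch1*, *Jag2* and *Dll1* held at most 3 counts in any library. All 9 genes passed the filter on low counts in every comparison. To study *Sbsn*, which encodes the secreted epidermal protein suprabasin, cells kept at 0.05 mM calcium were transfected with 75 pmol of pooled siRNAs that either target *Sbsn* (siSbsn) or have no target in the mouse (siControl). Calcium was then 0.12 mM, which starts differentiation, and RNA was taken 48 hours after transfection. Batch 1 held 2 libraries each of siSbsn, siControl and cultures that received no siRNA. Batch 2 held 3 libraries each of siSbsn and siControl, with the siSbsn libraries numbered 4 to 6. The labels do not say what the batches are, nor whether replicates came from separate mice, so the p-values measure the spread between these libraries, which may be technical.

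Notch receptors sit in the cell membrane and are bound by Jagged or Delta ligands on a neighbouring cell. Binding leads to cleavage of the receptor by an ADAM protease and by gamma-secretase, and the freed intracellular domain enters the nucleus, where it joins the DNA-binding protein RBPJ and a Mastermind co-activator to switch on genes such as *Hes1* and *Hey1*. In the epidermis, Notch signalling is known for promoting the step from the basal to the spinous layer.

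The results below turn on the receptors, so the 250 bases before a RefSeq transcription start of each receptor gene are shown, with those of *Rbpj* for contrast. RefSeq windows (build GRCm38.p6) matched 7 of the 9 genes, all but *Hes1* and *Hey1*. The *Notch1* stretch is chr2:26503823-26504072 on the minus strand, *Notch2* is chr3:98013288-98013537 on the plus strand, *Notch3* is chr17:32166891-32167140 on the minus strand, and *Rbpj* is chr5:53590096-53590345 on the plus strand, before 1 of its annotated starts and inside its counted locus. Each is printed from 5′ to 3′ on the strand of the gene, and capitals mark every match, on either strand, to any of 5 short motifs. The first is TGGGAA, the core letters bound by RBPJ. The next is GGGCGG, the GC box that binds factors of the Sp family. The others were the AP-1 letters TGANTCA, the TATA box letters TATAAA, and the CCAAT box, and no match overlapped one of another motif.
*Notch1*: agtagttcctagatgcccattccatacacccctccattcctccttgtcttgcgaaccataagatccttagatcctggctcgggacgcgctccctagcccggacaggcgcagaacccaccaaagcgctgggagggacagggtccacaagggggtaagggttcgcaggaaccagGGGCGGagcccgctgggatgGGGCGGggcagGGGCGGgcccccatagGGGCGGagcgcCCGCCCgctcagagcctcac
*Notch2*: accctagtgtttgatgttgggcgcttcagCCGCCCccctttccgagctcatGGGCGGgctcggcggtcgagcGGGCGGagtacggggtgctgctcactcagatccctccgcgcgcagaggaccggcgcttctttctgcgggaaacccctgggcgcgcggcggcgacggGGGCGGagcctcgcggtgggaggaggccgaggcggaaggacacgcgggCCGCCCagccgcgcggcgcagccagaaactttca
*Notch3*: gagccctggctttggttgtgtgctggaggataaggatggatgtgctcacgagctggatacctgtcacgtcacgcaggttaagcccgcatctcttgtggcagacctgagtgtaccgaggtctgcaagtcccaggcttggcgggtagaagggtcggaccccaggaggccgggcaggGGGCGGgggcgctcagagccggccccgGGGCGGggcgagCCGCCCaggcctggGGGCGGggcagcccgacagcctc
*Rbpj*: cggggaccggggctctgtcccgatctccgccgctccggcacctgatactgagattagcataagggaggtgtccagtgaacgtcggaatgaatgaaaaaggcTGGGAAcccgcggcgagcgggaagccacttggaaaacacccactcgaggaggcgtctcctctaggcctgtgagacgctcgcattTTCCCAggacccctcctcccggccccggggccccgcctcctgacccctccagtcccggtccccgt
GGGCGG occurred 5 times before *Notch1*, 5 times before *Notch2* and 4 times before *Notch3*, and was not among these letters of *Rbpj*. The same GC box letters also occurred 5 times before the ligand gene *Jag2*, which is not printed, so they were not particular to the receptors. They were in no window of *Jag1* or *Dll1*. Of all 32851 RefSeq windows of this length, 32.7% held them. TGGGAA occurred 2 times in the *Rbpj* stretch and in none of the receptor stretches, against 21.6% of all windows. The AP-1 letters (in 6.75% of all windows), the TATA box (12.4%) and the CCAAT box (33.8%) were not found in the 4 stretches. The stretches were 65.2% to 72% G and C, against a median of 52.4% over all windows. These matches describe the letters only, and binding was not measured.

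The libraries held 27934836 to 49553923 counts. Levels are given as CPM, counts per 1000000 of the effective library size after TMM scaling, which evens out the libraries over most genes. Of the keratinocyte markers, *Krt14* (9607 to 28816 CPM), *Krt5* (6489 to 17986 CPM) and *Cdh1* (1117 to 2048 CPM) were high in every library. *Trp63* (109 to 236 CPM), *Itga6* (79.8 to 185 CPM), *Krt1* (26.4 to 335 CPM) and *Krt10* (15.9 to 73.8 CPM) were lower. The siRNA target checked the labels only in part. In batch 2, *Sbsn* was at 121 to 125 CPM with siSbsn and at 332 to 459 CPM with siControl. In batch 1, siSbsn replicate 2 had 696 CPM, but the library labelled siSbsn replicate 1 had 1965 CPM, above both siControl libraries (1189 and 1356 CPM), so that library goes against its label. The siControl libraries of batch 1 also stood apart from each other, with more difference between their counts than any other replicate pair. Values without these libraries are given below where results rest on them.

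Per kilobase of the longest annotated transcript, *Jag1* had the highest level of the 9 genes, at a mean of 98.8 CPM per kb over the 12 libraries (range 37.2 to 125). *Notch1* followed at 72.9 CPM per kb (20.3 to 118), *Hes1* at 58.0 (44.5 to 95.02) and *Notch2* at 34.1 (13.6 to 45.0). The receptors, the main Jagged ligand and a target gene were thus all transcribed in these cultures. *Jag2* was at 11.2 CPM per kb, *Notch3* at 8.81, *Dll1* at 5.01, *Rbpj* at 2.02 and *Hey1* at 0.336. In this order, *Jag1* stood above *Notch1* in 12 of 12 libraries, *Hes1* above *Notch2* in 12 and *Notch2* above *Jag2* in 12. *Notch1* and *Hes1* were not separated, with *Notch1* higher in 7 of the 12 libraries, and neither were *Jag2* and *Notch3* (8 of 12) or *Notch3* and *Dll1* (7 of 12). *Hey1* rested on 17 to 47 counts per library. The level of *Rbpj* may be too low, since 24.3% of the 50-base stretches of its transcript also occur in other transcripts, its processed pseudogenes among them, and reads with several matches had been dropped. This share was 15.0% for *Dll1*, 13.7% for *Notch1*, 5.01% for *Notch3*, 3.86% for *Notch2* and 0 for the other 4 genes. Part of these shared stretches lies in genes that overlap the same locus, such as the antisense gene *A930024N18Rik* at *Dll1*, and the sources at hand do not state if reads were counted by strand.

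**Figure D1:**
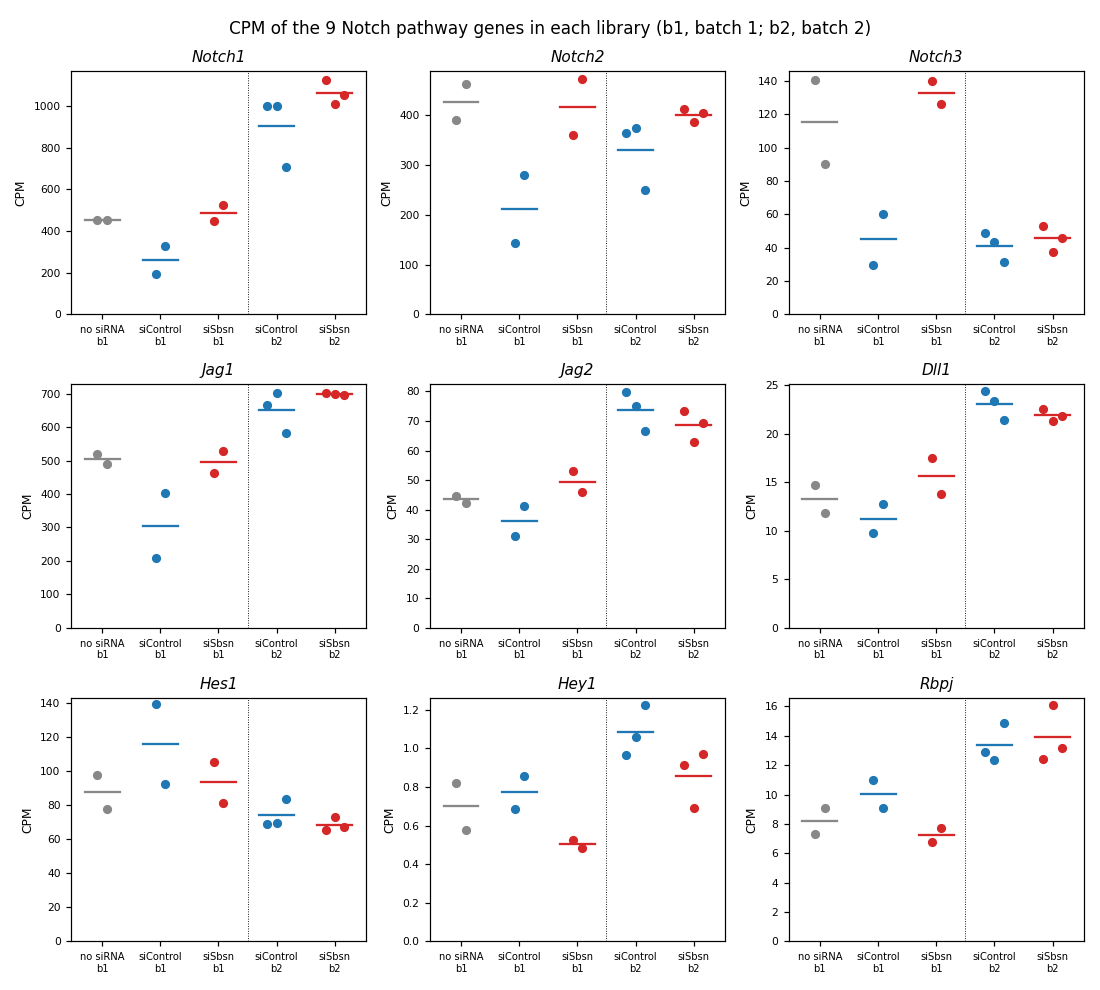
CPM of each of the 9 genes (vertical axes, linear, from 0) in every library, by treatment and batch, with points for libraries and lines for group means. In batch 1 the siControl libraries lie below the siSbsn libraries for the 3 receptors, and *Notch1*, *Jag1*, *Jag2*, *Dll1* and *Rbpj* lie higher in every library of batch 2 than in any library of batch 1.

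To find whether Notch pathway transcripts differed upon *Sbsn* knockdown, siSbsn was compared with siControl over both batches, with batch in the model. The receptor genes had the largest estimates, between 1.42-fold and 1.64-fold higher with siSbsn, but no gene of the 9 was called, which required a log2-fold change above 0.5 in size together with an adjusted p (q) under 0.05. The edgeR quasi-likelihood test called 0 of the 9 genes and 0% of the 12857 loci tested. DESeq2 also called 0 of the 9, beside 0.708% of all loci. At an unadjusted p under 0.05, 3 of the 9 were higher and 1 was lower, where 9.68% of all loci were higher and 9.49% lower. The median log2-fold change of the 9 genes was 0.15, beside 0.01 over all loci. *Sbsn*, the siRNA target, was itself not called over both batches (log2-fold change −0.96, SE 0.35, q = 0.254 in edgeR and 0.097 in DESeq2). In such bulk samples, fewer cells of a type and less RNA per cell cannot be told apart.

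*Notch1*, the receptor known for restraining growth and promoting differentiation in the epidermis, had 193 and 330 CPM with siControl and 450 and 526 CPM with siSbsn in batch 1. In batch 2 it was at 999, 999 and 708 CPM with siControl and at 1122, 1009 and 1054 CPM with siSbsn. Every siSbsn library thus lay above every siControl library of its batch, though by a narrow margin in batch 2. The log2-fold change was 0.51 (SE 0.18, 95% interval 0.10 to 0.91, q = 0.254).

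*Notch2*, a second receptor of the same family, was at 143 and 280 CPM with siControl and at 359 and 473 CPM with siSbsn in batch 1. In batch 2 it was at 364, 375 and 250 CPM with siControl and at 413, 385 and 405 CPM with siSbsn. The groups did not overlap in either batch, and the log2-fold change was 0.56 (SE 0.21, 95% interval 0.10 to 1.03, q = 0.254). Of the 9 genes, *Notch1* and *Notch2* were the 2 with every siSbsn library above every siControl library in each batch, which held for 5.13% of all loci tested.

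*Notch3*, a receptor best known from vascular mural cells but also transcribed in the suprabasal epidermis, was at 29.9 and 60.3 CPM with siControl and at 140 and 126 CPM with siSbsn in batch 1. In batch 2 it was at 48.8, 43.6 and 31.5 CPM with siControl and at 53.1, 37.6 and 46.1 CPM with siSbsn. The groups were far apart in batch 1 and overlapped in batch 2. Its log2-fold change over both batches was 0.71 (SE 0.29, 95% interval 0.07 to 1.36, q = 0.257).

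Among the ligands, *Jag1* was at 209 and 402 CPM with siControl and at 463 and 527 CPM with siSbsn in batch 1. In batch 2 its levels were 667, 703 and 581 CPM with siControl and 700, 697 and 697 CPM with siSbsn, so the groups overlapped there. The log2-fold change was 0.35 (SE 0.17, 95% interval −0.04 to 0.73, q = 0.273). *Jag2*, the other Jagged ligand, and *Dll1*, a Delta ligand reported at high level in epidermal stem cell clusters, differed less, with log2-fold changes of 0.12 (SE 0.13, 95% interval −0.17 to 0.41) and 0.15 (SE 0.13, 95% interval −0.14 to 0.43). These intervals leave room for a difference of either sign.

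The target genes had estimates below 0. *Hes1*, a transcriptional repressor that holds back differentiation of spinous cells, was at 139 and 92.5 CPM with siControl and at 106 and 81.3 CPM with siSbsn in batch 1, and at 65.3 to 83.8 CPM in the 6 libraries of batch 2. The groups overlapped in each batch and the log2-fold change was −0.19 (SE 0.13, q = 0.363). *Hey1*, a related repressor, was at 0.684 and 0.858 CPM with siControl and at 0.524 and 0.482 CPM with siSbsn in batch 1, and at 0.967, 1.06 and 1.22 CPM with siControl and 0.913, 0.691 and 0.969 CPM with siSbsn in batch 2. Its log2-fold change was −0.42 (SE 0.17, q = 0.257), on few counts. For *Rbpj*, which gives the Notch complex its DNA contact, the log2-fold change was −0.14 (SE 0.13, q = 0.495). Without the first siControl and the first siSbsn library of batch 1, left out after seeing the data, the log2-fold changes over both batches were 0.35 for *Notch1*, 0.40 for *Notch2*, 0.38 for *Notch3* and −0.41 for *Hey1*, again with 0 of the 9 called.

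**Figure D2:**
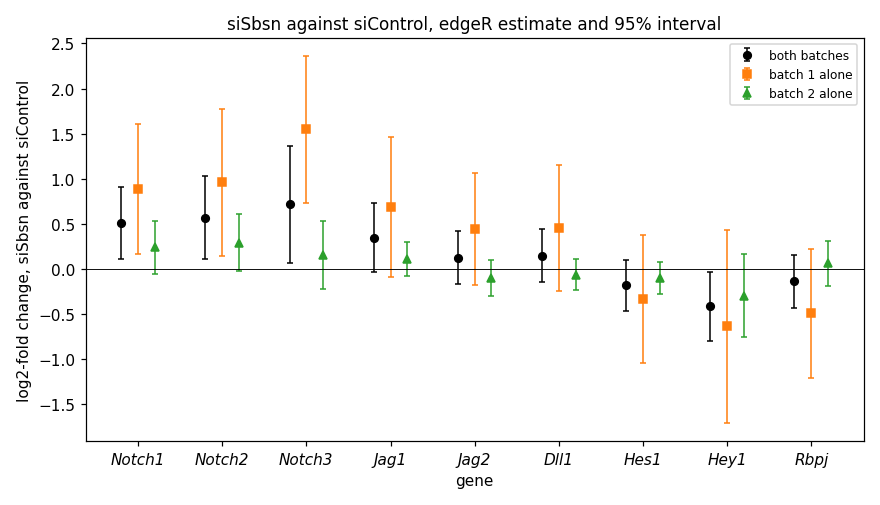
Log2-fold change of each gene for siSbsn against siControl (vertical axis) with its 95% interval from edgeR, over both batches (black circles), in batch 1 alone (orange squares) and in batch 2 alone (green triangles). The estimates of batch 1 lie farther from 0 than those of batch 2 for all 9 genes, and their intervals are wider.

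Each batch alone gave the receptor genes different estimates. In batch 1, *Notch3* was 2.92-fold higher with siSbsn (log2-fold change 1.55, SE 0.35, q = 0.423), *Notch2* was 1.95-fold higher (0.96, SE 0.35, q = 0.423) and *Notch1* was 1.85-fold higher (0.88, SE 0.31, q = 0.423). edgeR called 0 of the 9 genes and 0% of all loci there. With a block for the replicate number, whose meaning the labels do not give, it called 4 of the 9 (*Notch1*, *Notch2*, *Notch3* and *Jag1*) and 14% of all loci. DESeq2 called *Notch3* (q = 0.00923) among the 1.16% of loci it called. At an unadjusted p under 0.05, the 3 receptors were higher and none of the 9 was lower, beside 6.93% of loci higher and 4.79% lower. With 2 libraries a group, 6 of the 9 had every siSbsn library above every siControl library and 2 (*Hey1* and *Rbpj*) had the opposite, where 25.2% and 25.9% of all loci did so. *Sbsn* itself was not lower with siSbsn in batch 1 (log2-fold change 0.04, SE 0.45, q = 0.973 in edgeR). Without siSbsn replicate 1, the library that goes against its label, the median log2-fold change of the 9 genes was 0.35, beside 0.45 with it. In the siSbsn library then left, replicate 2, *Notch1* (526 CPM), *Notch2* (473 CPM) and *Notch3* (126 CPM) lay above both siControl libraries. The receptor estimates rest in part on siControl replicate 1, which had the lowest *Notch1*, *Notch2*, *Notch3* and *Jag1* of all 12 libraries. Without it the log2-fold changes in batch 1 were 1.13 for *Notch3* and 0.56 for *Notch1*, with 0 of the 9 called. Without siControl replicate 2 they were 2.09 and 1.28, and the 3 receptors and *Jag1* were called, as were 25.5% of all loci.

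In batch 2 the same comparison gave *Notch2* 1.22-fold higher with siSbsn (log2-fold change 0.29, SE 0.14, q = 0.498), *Notch1* 1.18-fold higher (0.24, SE 0.13, q = 0.517) and *Notch3* 1.11-fold higher (0.15, SE 0.17, q = 0.726). None of the 9 was called, where 0.00774% of loci were, namely *Sbsn* (log2-fold change −1.64, q = 0.000560). None passed an unadjusted p under 0.05 either, beside 4.51% of loci higher and 5.69% lower. The receptor estimates were smaller in batch 2, where *Sbsn* fell, than in batch 1, and what lies behind this was not tested. The upper ends of the 95% intervals in batch 2 were 0.53 for *Notch1*, 0.60 for *Notch2* and 0.53 for *Notch3*.

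The difference between the batches in the siSbsn comparison was tested as an interaction. For *Notch3* the log2-fold change of siSbsn against siControl was lower by 1.40 in batch 2 (interaction −1.40, SE 0.41, q = 0.265 in edgeR, and q = 0.0572 in DESeq2). None of the 9 was called, as was 0% of all loci. At an unadjusted p under 0.05 there were 4 of the 9 (*Notch3*, *Jag2*, *Dll1* and *Rbpj*), beside 15.1% of loci. Without siControl batch 1 replicate 2, 6 of the 9 were called and 37.8% of all loci.

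A trend with transcript length ran through these comparisons and is given here because the receptor transcripts are long, with 8016 to 10500 bases. In siSbsn against siControl over both batches, the median log2-fold change was −0.29 in the lowest of 10 bins of transcript length and 0.35 in the highest bin, which holds the 3 receptors. In batch 1 these medians were −0.58 and 0.60, and in batch 2 they were −0.12 and 0.16. With the trend removed by length-dependent offsets, the log2-fold changes over both batches were 0.16 for *Notch1*, 0.19 for *Notch2* and 0.44 for *Notch3*, and that of *Hes1*, a short transcript, went from −0.19 to 0.05. The receptors' estimates were thus lower on this scale, and 0 of the 9 were called. What part RNA quality or library preparation has in the trend was not tested.

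The cultures without siRNA in batch 1 show where the receptors stood without siRNA. The labels do not say whether these cultures received the transfection reagent. *Notch1* was at 453 and 455 CPM there, *Notch2* at 391 and 463 CPM and *Notch3* at 141 and 90.5 CPM. These values lie above both siControl libraries of batch 1. They lie inside the range of the siSbsn libraries for *Notch1* and *Notch2* and overlap it for *Notch3*. In siControl against no siRNA the log2-fold changes were −0.77 for *Notch1* (SE 0.27), −0.98 for *Notch2* (SE 0.33) and −1.33 for *Notch3* (SE 0.36), each with q = 0.308. None of the 9 was called, as was 0% of all loci, and the 3 receptors were the genes of the 9 with an unadjusted p under 0.05, all lower, beside 8.77% of loci higher and 7.29% lower. This comparison shares its siControl libraries with siSbsn against siControl, so opposite signs in both are no separate evidence. Without siControl replicate 2, the 3 receptors and *Jag1* were called lower than in no siRNA, and 23.7% of all loci were called. It also had the opposite length trend, with medians of 0.64 and −0.69 in the bins of the shortest and longest transcripts.

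Between siSbsn and no siRNA in batch 1, the receptors differed little, with log2-fold changes of 0.10 for *Notch1* (95% interval −0.53 to 0.74), −0.04 for *Notch2* (−0.81 to 0.74) and 0.20 for *Notch3* (−0.63 to 1.04). None of the 9 was called, as was 0% of all loci, and none had an unadjusted p under 0.05, beside 0.175% of loci. The intervals still leave room for differences of over 0.5 either way.

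Most of the 9 genes differed between the batches. In the 10 libraries with siRNA, with treatment in the model, 8 of the 9 genes were called. Higher in batch 2 were 6 (*Notch1*, all 3 ligands, *Hey1* and *Rbpj*), where 16.4% of all loci were called higher, and lower were 2 (*Notch3* and *Hes1*), where 21.3% were called lower. DESeq2 called the same 8 genes, and 38.4% of all loci. The median log2-fold change of the 9 was 0.66, beside −0.02 over all loci. Batch 2 differs from batch 1 in every step that the batches did not share, so what lies behind these differences cannot be told apart here.

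*Notch1* had the largest difference of the 9, with 193 to 526 CPM in the 4 siRNA libraries of batch 1 and 708 to 1122 CPM in batch 2. The fold was 2.72 (log2-fold change 1.44, SE 0.19, q = 0.000236). *Notch2*, at 143 to 473 CPM in batch 1 and 250 to 413 CPM in batch 2, was the gene not called (0.28, SE 0.21, q = 0.285). *Notch3* had an estimate of the opposite sign, from 29.9 to 140 CPM in batch 1 to 31.5 to 53.1 CPM in batch 2 (−0.88, SE 0.29, q = 0.0271). Of the receptors, *Notch1* was thus higher in every library of batch 2, while the levels of *Notch2* and *Notch3* overlapped between the batches. The *Notch3* call was lost when 1 of 6 libraries was left out, which were the 5 siSbsn libraries and siControl batch 1 replicate 2 (the highest q was 0.0925), and in the siControl libraries alone its log2-fold change was −0.12.

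Ligand genes were higher together in batch 2. *Jag1* was 1.72-fold higher (log2-fold change 0.78, SE 0.18, q = 0.00500), *Jag2* 1.67-fold (0.74, SE 0.14, q = 0.00143) and *Dll1* 1.68-fold (0.75, SE 0.14, q = 0.00134). *Jag2* was at 31.0, 41.1, 53.0 and 46.0 CPM in batch 1 and at 62.7 to 80.0 CPM in batch 2, and *Dll1* was at 9.76, 12.8, 17.5 and 13.8 CPM and at 21.3 to 24.4 CPM. For *Notch1*, the 3 ligands and *Rbpj*, which are 5 of the 9 genes, every siRNA library of batch 2 lay above every siRNA library of batch 1, as for 17.2% of all loci. No gene of the 9 lay below throughout, as 19% of loci did.

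The target genes split, with *Hes1* lower (log2-fold change −0.56, SE 0.13, q = 0.00476) and *Hey1* higher in batch 2 (0.61, SE 0.18, q = 0.0153). *Hes1* was at 81.3 to 139 CPM in the siRNA libraries of batch 1 and at 65.3 to 83.8 CPM in batch 2, and *Hey1* at 0.482 to 0.858 and 0.691 to 1.22 CPM, so both overlapped. *Rbpj* was at 6.78 to 11.02 CPM in batch 1 and 12.4 to 16.1 CPM in batch 2 (0.66, SE 0.14, q = 0.00299). The *Hes1* estimate fell below the fold threshold without siControl batch 1 replicate 1 (−0.40) and without siSbsn batch 1 replicate 1 (−0.49).

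In the siControl libraries alone, 3 of the 9 genes were called between the batches, as were 14% of all loci. The 3 were *Notch1* (log2-fold change 1.79, q = 0.0224), *Jag2* (1.03, q = 0.0245) and *Dll1* (1.03, q = 0.0234). With the length trend removed, 6 of the 9 were called, as were 33.5% of all loci. These were *Notch1* (0.94), *Jag1* (0.59), *Jag2* (0.58), *Dll1* (0.76) and *Hey1* (0.77), which were higher, and *Notch3* (−1.27), which was lower, while *Hes1* (−0.22) and *Rbpj* (0.45) passed below the thresholds. Leaving out the first siControl and siSbsn libraries of batch 1, as above, also gave 6 called genes, beside 26% of all loci, namely *Notch1* (1.22), *Notch3* (−1.05), the 3 ligands (0.54 to 0.76) and *Rbpj* (0.69).

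**Figure D3:**
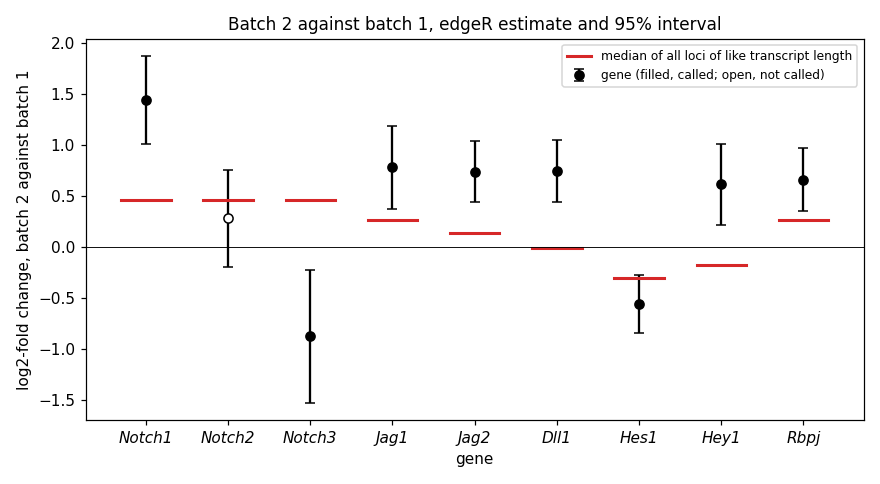
Log2-fold change of each gene for batch 2 against batch 1 (vertical axis) with its 95% interval from edgeR, filled where called, and the median of all loci of like transcript length (red bars). *Notch1* lies well above and *Notch3* well below the median of 0.46 that they share, and *Notch2* lies near it.

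Within the summed level per kilobase of the 3 receptor genes, which was compared after the values were seen and is given without a test, *Notch1* made up 46.4% to 54.0% in the 6 libraries of batch 1 and 71.5% to 72.9% in batch 2. The share of *Notch2* was 34.5% to 42.7% and 23.3% to 24.8%, and that of *Notch3* was 9.90% to 17.6% and 3.18% to 4.17%. No share overlapped between the batches, also with the library that went against its label. The ligand shares did not move in this way, with *Jag1* at 80.9% to 88.3% of the 3 ligand genes in batch 1 and 84.1% to 87.2% in batch 2.

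**Figure D4:**
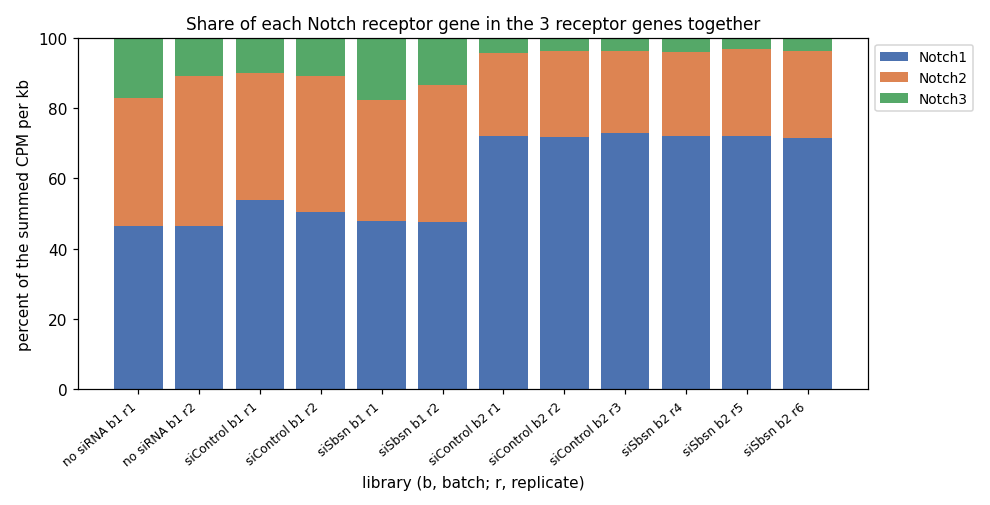
Percent of the summed CPM per kb of *Notch1*, *Notch2* and *Notch3* that each receptor gene holds (stacked bars, vertical axis from 0 to 100) in every library. *Notch1* holds 46.4% to 54.0% in the libraries of batch 1 and 71.5% to 72.9% in those of batch 2.

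Around these genes, a wider list of 72 pathway genes was followed, of which 62 were tested. Those not tested were close to 0 throughout and include the receptor gene *Notch4* (at most 0.396 CPM), the ligand genes *Dll3* and *Dll4* (at most 0.523 and 0.290 CPM) and *Hes5* (at most 0.0360 CPM). In siSbsn against siControl over both batches 0 of the 62 were called, 16 were higher and 3 lower at an unadjusted p under 0.05, where 9.68% of all loci were higher and 9.49% lower, and the median log2-fold change was 0.16, beside 0.01 over all loci. Among those with the smallest p were *Aak1*, a kinase of endocytosis (log2-fold change 0.62, SE 0.20), and *Maml3*, a Mastermind co-activator (0.57, SE 0.20), each with q = 0.254 in edgeR. *Maml3* was at 38.3 and 65.6 CPM with siControl and at 112 and 116 CPM with siSbsn in batch 1, and at 53.7 to 67.4 and 67.0 to 75.4 CPM in batch 2, where the groups overlapped. By group, the genes higher at that level were 4 of 8 of the nuclear complex, 3 of 10 of receptor cleavage, 4 of 11 modifiers, 1 of 4 of ligand endocytosis, 2 of 12 co-repressors and 2 of 7 genes reported downstream of Notch in keratinocytes. None was higher among 5 glycosylation genes, 3 of the *Hes* and *Hey* family and the 2 ligand-related genes *Dlk1* and *Dlk2*. The 3 lower ones were the co-repressor *Ctbp1* (−0.23), *Hes6* (−0.32) and, of the downstream genes, *Myc* (−0.23), named after their values were seen. Of those higher, the 4 of the nuclear complex all had larger estimates in batch 1 than in batch 2. *Crebbp* was at 1.30 and 0.42 and *Maml3* at 1.11 and 0.19. The values of the wider list were not corrected for the length trend.

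Between the batches 11 of these 62 (17.7%) were called higher in batch 2 and 9 (14.5%) lower, beside 16.4% and 21.3% of all loci, so the shares of called genes in the wider list were near or below those of all loci. *Nrarp*, which encodes an inhibitor of the Notch nuclear complex and is itself switched on by Notch, had the largest difference, with 94.5 to 249 CPM in batch 1 and 30.7 to 41.7 CPM in batch 2 (log2-fold change −2.07, SE 0.23, q = 6.84e-05). *Heyl*, of the same repressor family as *Hey1*, was at 0.858 to 5.55 CPM in batch 1 and 0.553 to 0.805 CPM in batch 2 (−1.66, SE 0.44, q = 0.00982). *Lfng* (−1.0025, q = 0.000456) and *Rfng* (−0.88, q = 0.000739), which encode Fringe enzymes that add sugars to the receptors, were lower as well. Genes known as Notch targets did not share a direction in these calls. *Nrarp*, *Heyl* and *Hes1* were called lower in batch 2 and *Hey1* higher, while *Notch1* and the ligands were higher. The *Hey1* call rested on few counts, and *Hes1* was not called with the length trend removed or in the siControl libraries alone. With siControl, *Heyl* was at 0.858 to 1.12 CPM in batch 1 and 0.679 to 0.805 CPM in batch 2.

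The other genes called lower were *Psenen* of gamma-secretase (−0.87), the ligand ubiquitin ligases *Mib2* (−0.57) and *Neurl1b* (−0.63), *Hdac1* (−0.64) and *Dtx4* (−0.57). Those called higher included the co-activators *Ep300* (1.14), *Crebbp* (1.12) and *Maml1* (0.58) and the co-repressors *Spen* (0.68), *Ncor1* (0.72) and *Kdm5a* (0.88). These co-repressors were counted in joined loci, *Spen* with *Zbtb17*, *Ncor1* with *Ttc19* and *Pigl*, and *Kdm5a* with *Ccdc77*. The remaining ones were *Mib1* (0.64), *Numb* (0.50), *Itch* (0.56), and, of genes reported downstream of Notch in keratinocytes, *Myc* (0.70) and *Krt10* (0.99).

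Genes with the most similar profile over the 12 libraries were found by the mean absolute difference of standardised log2 levels, on which 0 means the same profile. *Jag2* and *Dll1* were each other's nearest locus among all loci tested (0.128), which is a description, since all profiles share the batches and the depth of the libraries. The nearest loci of the receptors were *Dst* for *Notch1* (0.0922), *Dip2b* for *Notch2* (0.0692) and *Tmc7* for *Notch3* (0.0939). For *Jag1* it was *Arid4b* (0.0909), for *Hes1* *Mdh1* (0.0788), for *Rbpj* *Actr6* (0.129) and for *Hey1* *Bcl10* (0.330).

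Summed levels of markers of other cell types moved with some of these results, though not every marker followed its sum. The 6 melanocyte genes, all detected, summed to 699 to 869 CPM in the libraries of batch 1 and to 983 to 1036 CPM in those of batch 2, where *Jag2* and *Dll1* were also higher. The second nearest locus of *Jag2* was *Tyr*, the tyrosinase of melanocytes (0.135), and *Tyr* also stood at a distance of 0.159 from *Dll1*. *Tyr* was singled out after its distances were seen. *Dct*, *Tyrp1*, *Tyr* and *Sox10* were higher in every library of batch 2 than in any of batch 1. *Mlana* (12.8 to 27.6 CPM in batch 1, 16.8 to 22.3 CPM in batch 2) and *Pmel* (240 to 327 and 313 to 334 CPM) overlapped. The 6 fibroblast genes, all detected, summed to 413 to 426 CPM in the siControl libraries of batch 1, 488 to 1163 CPM in siSbsn and 482 to 928 CPM in no siRNA, and to 358 to 420 CPM in batch 2. The 4 mural cell genes summed to 37.3 to 44.1, 56.9 to 86.2, 59.0 to 81.5 and 39.7 to 51.0 CPM in the same order, with *Rgs5* at most at 0.647 CPM and *Des* at most at 0.444 CPM. For both sums, the upper values in siSbsn and no siRNA of batch 1 came from replicate 1. In siSbsn this is the library that goes against its label. Among the fibroblast genes, *Dcn* (3.17 to 5.14 CPM in batch 1, 7.89 to 10.4 CPM in batch 2) and *Lum* (0.370 to 0.627 and 0.680 to 0.902 CPM) were instead higher in batch 2. *Notch3* was also highest in siSbsn and no siRNA of batch 1. The 5 endothelial genes summed to at most 3.47 CPM and the 5 immune genes to at most 10.6 CPM, with *Cd207* at 0. What part these cells had in the levels of *Jag2*, *Dll1* and *Notch3* was not tested.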

How the data were processed

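RNA-Seq was performed on 12 keratinocyte libraries. The authors aligned reads to mm10 with STAR, retained uniquely aligned reads and counted them per gene of the UCSC KnownGene annotation, and the deposited values are raw whole-number counts without normalization. Overlapping genes had been joined into loci by the authors, and the loci of *Notch1*, *Notch3* and *Rbpj* also carry names of other transcripts. Starts are printed after adding 1, which matched the GENCODE annotation for 50.2% of single-name loci (4.97% as given). Groups, batches and replicate numbers came from the labels. The counts were filtered with filterByExpr, scaled by TMM and tested across all loci by edgeR 4.0.16 (quasi-likelihood F test, R 4.3.3), with batch in the model where both batches entered. The SE was derived from the log2-fold change and its F statistic, as the size of the former over the root of the latter. Calls required q under 0.05 after Benjamini-Hochberg adjustment and, except for the interaction, a log2-fold change above 0.5 in size. DESeq2 1.42.0 (the tool of the authors), limma-voom 3.58.1, other scalings, no filter, length offsets and leaving out libraries were tried beside it. CPM per kb used the longest GENCODE transcript. The fits and the offsets were tested on simulated data. RefSeq windows were searched on both strands.

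The 9 genes, the wider list and the markers were chosen with earlier results of these data known. Named genes are the 9, *Sbsn*, genes of the wider list that were called or, where none was, the 3 with the smallest p, and the nearest locus of each of the 9. One gene that this rule names is not reported here.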

Additional observations from a re-analysis of the deposited data

How the results depend on the processing

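The number of the 9 genes called was 0 in siSbsn against siControl over both batches under every alternative, among them DESeq2, limma-voom, no batch term, no siRNA pooled with siControl and the length offsets. Over all loci, edgeR called 0 there and DESeq2 called 52 higher and 39 lower. In batch 1 alone the number went from 0 to 1 with DESeq2 and to 1 without the filter (*Notch3* in both), and leaving out 1 library gave 0 to 4. For the interaction leaving out 1 library gave 0 to 6. For siControl against no siRNA the number was 2 without the filter (*Notch2* and *Notch3*), and leaving out 1 library gave 0 to 4. In these ranges every value above 0 came without siControl batch 1 replicate 2, where the lone siControl library left in batch 1 was assumed to vary like the other groups. Batch 2 alone and siSbsn against no siRNA gave 0 throughout. Over all loci, DESeq2 called 1.16% in batch 1 alone. The fit without the filter called 2.62% there and 4.3% in siControl against no siRNA. Between the batches the number went from 8 to 3 in the siControl libraries alone, to 6 with length offsets, and to 6 to 8 with 1 library left out.

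Libraries of batch 1 share the numbers 1 and 2, and the labels do not say what a number marks. Deviations of same-numbered libraries correlated by 0.47 between siControl and siSbsn, 0.39 between siControl and no siRNA and 0.82 between siSbsn and no siRNA. With the replicate block, siSbsn against siControl in batch 1 gave 4 called genes (*Notch1*, *Notch2*, *Notch3* and *Jag1*), as were 14% of all loci, and the other 3 comparisons fitted with a block gave 0.

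With the union of exons as length, levels were 48.6 CPM per kb for *Notch1*, 41.8 for *Hes1*, 8.20 for *Jag2*, 4.25 for *Dll1*, 0.869 for *Rbpj* and 0.249 for *Hey1*, and *Notch3* (8.74) then stood above *Jag2*. The cause of these changes was not tested. Batch 1 held 2 libraries a group, and *Hey1* was counted at 47 reads or fewer, which limits both.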
